A study of Mus musculus with 3 samples.

Results

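The matrix proteases and their inhibitors were taken as the genes whose symbol is Mmp, Timp, Adam, Adamts or Adamtsl followed by a digit, with symbols assigned through the RefSeq accession of each probe. The array held 84 such genes on 112 probes, of 21154 genes with a symbol and 55681 non-control probes, and 41 of the 84 were bright enough to be tested. RNA of brown fat, taken whole from male mice aged 10 weeks and kept on regular chow, was compared on 3 Agilent arrays that read both dyes. On each array, cRNA of an Ad-Lkb1 mouse of strain C57BL/6J, labelled with Cy5, was hybridised with cRNA of a wild-type (WT) littermate given as C57BL/6, labelled with Cy3. The series concerns deletion of liver kinase B1 (LKB1, encoded by Stk11), and its design text counts 3 biological replicates of each genotype. The promoter or Cre driver behind the prefix Ad, and the cell type it acts in, are not given in the sources used here. Dye, strain name and genotype ran together on all arrays and cannot be told apart, and the arrays came from 1 slide and 1 scan.

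Matrix metalloproteinases (MMPs) are zinc enzymes that cut collagens, elastin, proteoglycans and other proteins of the extracellular matrix, most of them secreted as inactive proenzymes. Tissue inhibitors of metalloproteinases (TIMPs) block their active sites. ADAMs are mostly membrane-anchored relatives that release the outer parts of other membrane proteins, and ADAMTS enzymes are secreted relatives that process procollagens and proteoglycans. In adipose tissue these enzymes and inhibitors are made by stromal cells, macrophages and adipocytes and take part in remodelling of the matrix.

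The promoters of 4 members with higher levels in Ad-Lkb1 tissue are shown because Mmp3 and Mmp12 lie in the same gene cluster on chromosome 9 and both rose, while Adam8 and Timp1 had the largest differences among the sheddases and the inhibitors. Each runs from 250 bases before to 50 bases after the RefSeq start of the gene on GRCm38.p6, 5′ to 3′ on the gene's strand. Capitals mark an AP-1 element, spelled TGAGTCA and searched on both strands, a TATA box, spelled TATAAA and searched on the gene's strand only, or a GC box, spelled GGGCGG and searched on both strands. No marked elements overlap. The windows are chr9:7445572-7445871 (plus strand) for Mmp3, chr9:7347124-7347423 (plus strand) for entry 2 of 2 of Mmp12, chrX:20869916-20870215 (plus strand) for Timp1 and chr7:139992513-139992812 (minus strand) for Adam8.
Mmp3: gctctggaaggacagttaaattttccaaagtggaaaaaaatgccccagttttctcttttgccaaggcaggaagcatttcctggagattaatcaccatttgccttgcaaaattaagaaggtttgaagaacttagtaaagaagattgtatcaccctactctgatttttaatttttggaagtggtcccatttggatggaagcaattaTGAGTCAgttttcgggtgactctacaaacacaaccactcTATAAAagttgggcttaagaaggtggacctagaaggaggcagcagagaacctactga
Mmp12: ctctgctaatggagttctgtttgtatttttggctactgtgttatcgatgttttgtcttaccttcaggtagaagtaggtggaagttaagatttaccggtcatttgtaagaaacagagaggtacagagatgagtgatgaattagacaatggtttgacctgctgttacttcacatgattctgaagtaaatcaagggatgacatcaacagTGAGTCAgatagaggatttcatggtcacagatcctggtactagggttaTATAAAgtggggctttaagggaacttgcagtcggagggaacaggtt
Timp1: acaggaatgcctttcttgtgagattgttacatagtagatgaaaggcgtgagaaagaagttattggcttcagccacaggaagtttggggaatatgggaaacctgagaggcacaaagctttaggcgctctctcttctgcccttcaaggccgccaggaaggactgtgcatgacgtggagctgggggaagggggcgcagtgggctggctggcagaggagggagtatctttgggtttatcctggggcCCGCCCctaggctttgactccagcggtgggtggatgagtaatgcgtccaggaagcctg
Adam8: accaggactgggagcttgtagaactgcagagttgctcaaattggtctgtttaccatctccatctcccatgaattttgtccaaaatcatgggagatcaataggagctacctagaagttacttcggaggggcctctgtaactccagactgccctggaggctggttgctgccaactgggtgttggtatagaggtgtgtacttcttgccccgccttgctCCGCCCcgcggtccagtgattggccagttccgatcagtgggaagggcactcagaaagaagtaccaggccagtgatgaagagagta
In the Mmp3 window the AP-1 element begins at base 205 and the TATA box at base 244, with 32 bases between them. In the Mmp12 window they begin at bases 207 and 255, with 41 bases between them. The TATA match of this window therefore lies after the annotated start of that entry, and the other Mmp12 entry (chr9:7344147-7344446) held neither. The Timp1 and Adam8 windows held a GC box, at bases 243 and 216, and no exact match to the AP-1 or TATA spelling. Variant spellings of these elements were not searched, so such sites may be present. An AP-1 element was present in 10 of the 58 promoters of members (17.24%), against 5.2% of all 32851 promoters in the table. The members with it were Adam19, Adam1b, Adam29, Mmp10, Mmp12, Mmp13, Mmp1a, Mmp1b, Mmp3 and Mmp7. All the MMPs among them are related neighbours in the cluster on chromosome 9, so the share does not describe the families at large. Only Adam19, Mmp12 and Mmp3 of these genes were bright enough to be tested. The TATA box was found in 20.69% of member promoters and 8.32% of all promoters, and the GC box in 46.55% and 35.66%. All the MMPs with a TATA box except Mmp21 also lie in that cluster. Among the 30 promoters of tested members the AP-1 element was in 10.0%, the TATA box in 10.0% and the GC box in 63.33%. Of the 84 members, 53 had a promoter entry, among them 7 of the 11 that passed the test described next.

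Several facts of the whole series bear on these values. Stk11 itself had log2 levels of 8.36, 8.46 and 8.38 in Ad-Lkb1 samples, against 9.62, 9.63 and 9.54 in WT samples, a mean log2 ratio of -1.20 ± 0.06 (SD, n = 3; adjusted p = 0.0105 in limma). In this and all following values, a level is the log2 signal of 1 channel after normalization, which is comparable between samples for 1 gene and not between genes. A log2 ratio is Ad-Lkb1 over WT within an array. A gene is said to have risen or fallen where limma's Benjamini-Hochberg adjusted p over all 19333 tested features was under 0.05. Skeletal muscle markers were unequal between samples, with a median log2 ratio of -3.31, 2.35 and 4.08 on arrays 1, 2 and 3. Their part in the results below was not tested. Of the 10 brown adipocyte markers 4 rose and none fell, or 2 rose and 3 fell with median centring in place of loess and 2 rose with the processed signals of the scanner software. The shares of all features that rose and fell were 4.77% and 3.92% as reported. They were 2.01% and 50.2% with median centring, and 2.75% and 1.46% with the processed signals. Ucp1, the uncoupling protein that defines the tissue, had levels of 17.03, 16.72 and 16.77 in Ad-Lkb1 samples, against 15.34, 15.34 and 15.42 in WT samples. Log2 ratios across genes correlated between arrays with r = 0.73 (arrays 1 and 2), 0.36 (1 and 3) and 0.50 (2 and 3). The tissue is a mixture of cell types, and fewer cells of a type cannot be told apart from less RNA per cell.

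Many members were not measurable in brown fat. Of the 84 genes, 33 (39.3%) were well above background in all 6 samples and 34 in no sample, while 57.3% of all genes with a symbol were above background in all 6. The members above background numbered 44, 45 and 46 in the Ad-Lkb1 samples of arrays 1, 2 and 3, against 39, 38 and 37 in the WT samples. The share of all probes above background was also higher in the Ad-Lkb1 samples. It was 46.410%, 50.035% and 50.003% on arrays 1, 2 and 3, against 45.612%, 45.633% and 45.597% in the WT samples. The part of this channel-wide difference in the member counts was not tested. The 4 TIMPs were above background in every sample. Of 22 MMPs, 8 were above background in all samples, 4 in some and 10 in none. The last group held the gelatinase Mmp9, matrilysin (Mmp7), the interstitial collagenase genes Mmp1a and Mmp1b, stromelysin 2 (Mmp10), Mmp16, Mmp20, Mmp21, Mmp25 and Mmp28. Among 34 ADAMs 15 were above background nowhere, and most of these belong to the ADAMs known mainly from testis, such as Adam1a, Adam4, Adam24 and Adam30. Among 19 ADAMTS genes 7 were above background nowhere, among them Adamts3, Adamts13 and Adamts20. For such genes the arrays give no ordering of the groups.

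**Figure D1:**
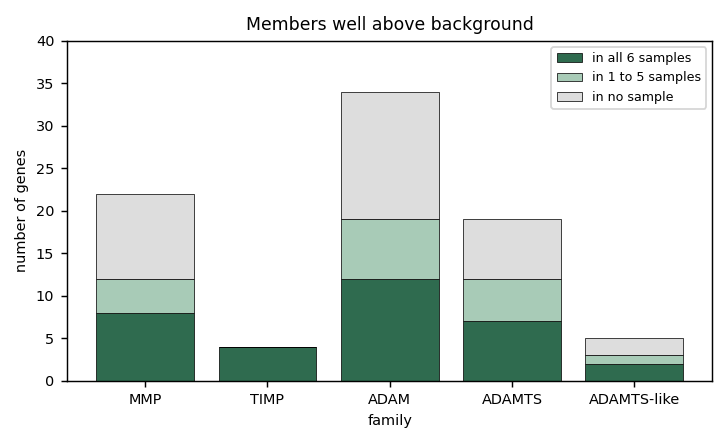
Number of genes of each family on the array (y axis) that were well above background in all 6 samples, in 1 to 5 samples or in none, with the family on the x axis. All 4 TIMP genes were above background in all samples, against 8 of 22 MMP and 12 of 34 ADAM genes.

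The test needed a probe that cleared background in every Ad-Lkb1 sample or in every WT sample, which left 43 members untested. Of these, 9 were above background on some arrays, and 5 of the 9 only in Ad-Lkb1 samples. As given above, more of all probes were also above background in the Ad-Lkb1 than in the WT sample of each array. The collagenase Mmp13 and Adam18 were above background in 2 of 3 Ad-Lkb1 samples, and the neutrophil collagenase Mmp8, Adam25 and Adamts12 in 1 of 3, against 0 of 3 WT samples for each. Adam5, Adam39, Adamts7 and Adamts16 were above background in some samples of both genotypes. The 9 had mean log2 ratios between -0.011 and 0.26. All 41 tested members were above background in all Ad-Lkb1 samples, while in WT samples 33 were above background on all arrays, 6 on 1 or 2, and 2 on none. Those 8 members could be tested only through their signal in Ad-Lkb1 samples. When the test was limited to the 33 members above background in all samples of both genotypes, 8 rose and 1 fell, and 4.76% of all features under the same filter rose and 4.29% fell.

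Of the 41 tested members 10 rose (24.4%), where 4.77% of all tested features rose, and 1 fell (2.44%), where 3.92% of all features fell. In all, 26.8% of members and 8.69% of features passed and are named called below. The median log2 ratio of the tested members was 0.20, against -0.0098 for all features, and on arrays 1, 2 and 3 it was 0.24, 0.19 and 0.23 for members, against -0.016, -0.0023 and -0.0076 for features. In 34 of 41 members the mean ratio was above 0, against 47.7% of features. The 3 Ad-Lkb1 levels lay above all 3 WT levels for 22 members (53.7%), against 17.8% of features, and below all WT levels for 2 members (4.88%), against 18.7% of features. With median centring in place of loess, which moved the median of all features to -0.42, 5 members rose and 6 fell, where 2.01% of all features rose and 50.2% fell, and the member median was 0.020. With the processed signals of the scanner software 5 members rose and none fell, where 2.75% of features rose and 1.46% fell. Adam9, Adam12, Adamts1, Mmp12, Timp1 and Timp2 did not pass there, nor with the deposited value table or with no filter on dim probes, which also lost Mmp3. Without array 1 or without array 2 no feature and no member passed the adjusted threshold. At an unadjusted p under 0.05 in limma 14 or 13 members were higher and 1 lower. In either direction 3929 or 3563 of 19332 features had such a p. Without array 3 12 members rose and 2 fell, where 6.85% of all features rose and 3.7% fell.

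**Figure D2:**
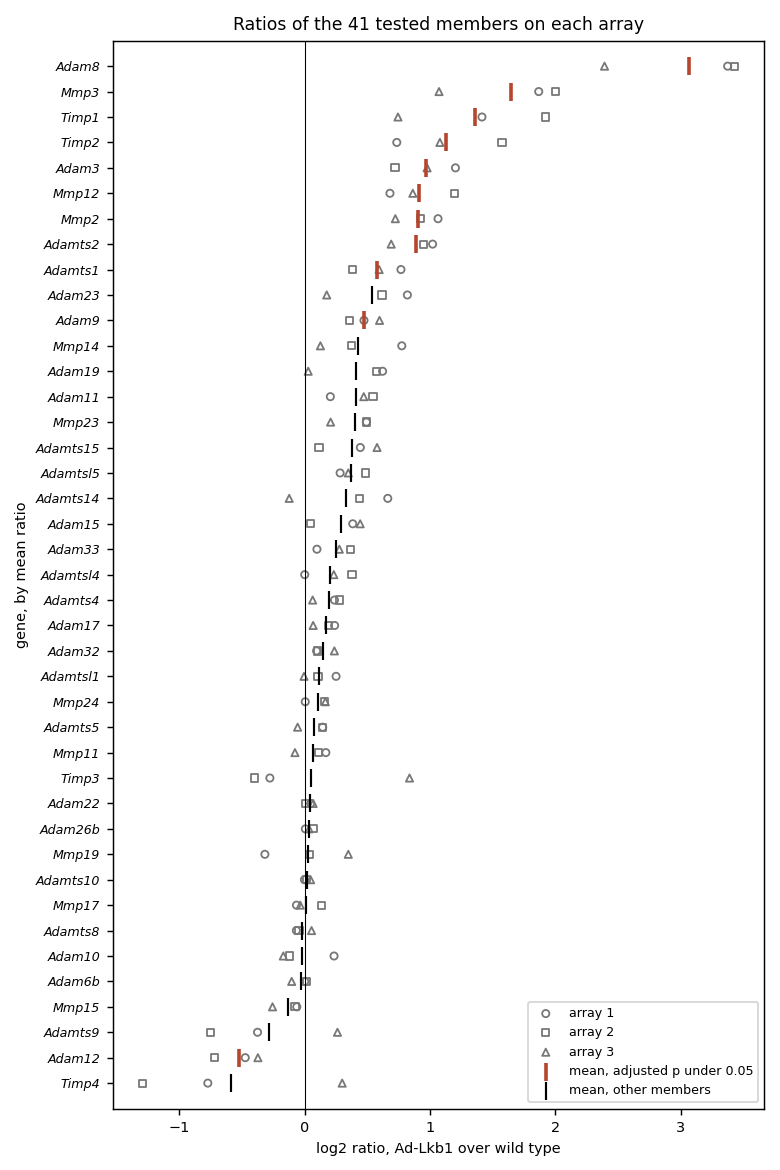
Log2 ratio of Ad-Lkb1 over WT (x axis) of the 41 tested members (y axis, ordered by mean ratio), with 1 open symbol per array and a bar at the mean, red where the adjusted p was under 0.05. Mean ratios ran from -0.59 for Timp4 to 3.07 for Adam8, and Timp3, Timp4 and Adamts9 had array 3 on the other side of 0 from arrays 1 and 2.

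Among the secreted MMPs, Mmp3, Mmp12 and Mmp2 rose and none fell. Over all 10 tested MMPs that is 3 that rose and none that fell, where 4.77% of all features rose and 3.92% fell. With median centring 2 MMPs rose and 1 fell (Mmp15), where 2.01% of all features rose and 50.2% fell. Mmp3 (stromelysin 1), which cuts many matrix proteins and activates other proenzymes of the family, had levels of 9.03, 8.98 and 8.49 in Ad-Lkb1 samples, against 7.16, 6.98 and 7.42 in WT samples. The groups did not overlap, the gap was narrowest on array 3, and the mean difference was 3.13-fold (log2 ratio 1.65 ± 0.50, SD, n = 3; adjusted p = 0.0253 in limma). Mmp12, the macrophage elastase, had levels of 7.36, 7.31 and 6.94 in Ad-Lkb1 samples, against 6.68, 6.11 and 6.08 in WT samples, where it was well above background on 1 of 3 arrays. Every Ad-Lkb1 level was above every WT level, with a log2 ratio of 0.91 ± 0.26 (SD, n = 3; adjusted p = 0.0274 in limma). The Mmp12 call was lost in 5 of 11 alternatives, among them the processed signals (adjusted p = 0.0744 in limma). A second Mmp12 probe was above background in no sample. Mmp2 (gelatinase A), which degrades denatured collagen and type IV collagen of basement membranes, had levels of 8.91, 8.52 and 8.59 in Ad-Lkb1 samples, against 7.85, 7.59 and 7.86 in WT samples. These groups did not overlap either, at 1.87-fold (log2 ratio 0.91 ± 0.17, SD, n = 3; adjusted p = 0.0195 in limma), but with median centring the ratio was 0.32 and not past the threshold. Mmp11 (stromelysin 3) had a mean ratio of 0.07 ± 0.13 (SD) and overlapping levels. Mmp9, the other gelatinase, was above background in no sample, and no collagenase was bright enough to be tested.

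Mmp3 and Mmp12 belong to a cluster of 10 MMP genes on chromosome 9, which RefSeq orders Mmp13, Mmp12, Mmp1b, Mmp3, Mmp1a, Mmp10, Mmp8, Mmp27, Mmp20 and Mmp7. The array held 9 of them. Mmp3 and Mmp12 were the 2 tested and both rose, but Mmp12 could be tested only through its signal in Ad-Lkb1 samples. Mmp13 and Mmp8 were above background in some Ad-Lkb1 samples and in no WT sample. As given above, more of all probes were also above background in the Ad-Lkb1 than in the WT sample of each array. The other 5 cluster genes on the array were above background nowhere. A joint change of the cluster was not tested.

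None of the 4 tested membrane-type MMPs, which are anchored at the cell surface, passed the threshold. Mmp14 (MT1-MMP), the enzyme that activates pro-MMP2 at the cell surface together with TIMP2, had levels of 6.90, 6.58 and 6.46 in Ad-Lkb1 samples, against 6.12, 6.20 and 6.33 in WT samples. Its groups did not overlap, but the ratio was 0.78, 0.38 and 0.13 on arrays 1, 2 and 3, and the mean of 0.43 ± 0.33 (SD, n = 3) had an adjusted p of 0.136 in limma. Mmp15 was lower on all arrays, at -0.13 ± 0.11 (SD), with levels that did not overlap and an adjusted p of 0.338 in limma. It passed the threshold as lower with median centring, as did 50.2% of all features. Mmp24 had a mean ratio of 0.11 and overlapping levels. Of the other MMPs, Mmp23 had 7.37, 7.36 and 7.07 in Ad-Lkb1 samples, against 6.87, 6.86 and 6.86 in WT samples, a ratio of 0.40 ± 0.17 (SD) with an adjusted p of 0.0700 in limma. Mmp19 was unsettled between arrays, at -0.32, 0.04 and 0.35.

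The 4 inhibitors split into 2 that rose and 2 whose direction differed between arrays, where 4.77% of all features rose and 3.92% fell. With median centring Timp1 rose and Timp4 fell, where 2.01% of all features rose and 50.2% fell. With the processed signals, the deposited value table and no filter on dim probes none of the 4 passed. The processed signals gave adjusted p-values of 0.0565 for Timp1 and 0.0617 for Timp2 in limma. Timp1, a secreted inhibitor induced in inflamed tissue that also binds pro-MMP9, had levels of 8.04, 8.43 and 7.79 in Ad-Lkb1 samples, against 6.63, 6.51 and 7.05 in WT samples. The groups were separate on every array and closest on array 3, with a mean of 2.57-fold (log2 ratio 1.36 ± 0.59, SD, n = 3; adjusted p = 0.0423 in limma). Timp2, which inhibits MMPs and also docks pro-MMP2 to MT1-MMP, had levels of 10.97, 11.56 and 11.44 in Ad-Lkb1 samples, against 10.24, 9.98 and 10.36 in WT samples. All Ad-Lkb1 levels exceeded all WT levels, by 2.19-fold on average (log2 ratio 1.13 ± 0.42, SD, n = 3; adjusted p = 0.0351 in limma), and a second Timp2 probe gave 1.47. With median centring the Timp2 ratio was 0.42 and not past the threshold.

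Timp3 and Timp4 did not follow them. Timp3, a matrix-bound inhibitor that also blocks ADAM17 and ADAMTS enzymes, had levels of 10.60, 10.96 and 11.08 in Ad-Lkb1 samples, against 10.88, 11.35 and 10.24 in WT samples. The ratio was negative on arrays 1 and 2 (-0.28 and -0.40) and positive on array 3 (0.84), the groups overlapped, and the mean of 0.05 ± 0.68 (SD, n = 3) had an adjusted p of 0.923 in limma and was -0.65 with median centring. Timp4 had levels of 8.35, 8.60 and 8.97 in Ad-Lkb1 samples, against 9.12, 9.89 and 8.67 in WT samples. It was lower on arrays 1 and 2 (-0.77 and -1.29) and higher on array 3 (0.30), with a mean of -0.59 ± 0.81 (SD, n = 3; adjusted p = 0.303 in limma). Timp4 passed the threshold as lower with median centring and when array 3 was left out, as did 50.2% and 3.7% of all features. The same arrangement, with array 3 opposite to arrays 1 and 2, was seen in 9 of the 13 members whose sign changed between arrays, among them Adamts9, Adamts5 and Adamts14. Array 1 stood alone in 3 of the 13 and array 2 in 1. The other 28 members had the same sign on all arrays, 26 higher and 2 lower, which is 28 of 41 members, against 51.8% of all features.

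**Figure D3:**
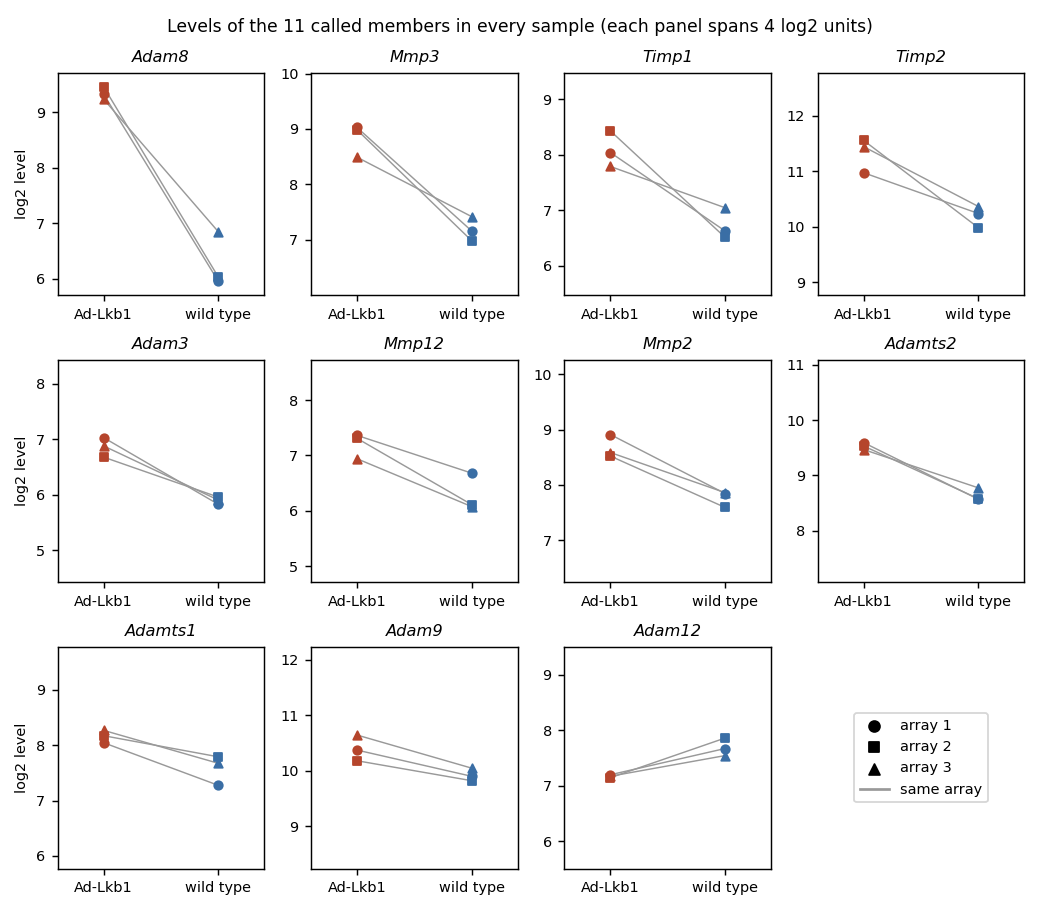
Log2 level (y axis) of the 11 called members in the Ad-Lkb1 and wild-type sample of each array, joined by a line, with 1 panel per gene and each panel spanning the same range. In all 11 genes the 3 Ad-Lkb1 levels lay on 1 side of the 3 WT levels, above them in 10 genes and below them in Adam12.

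Among the 8 tested ADAM sheddases, Adam8 and Adam9 rose and Adam12 fell, where 4.77% of all features rose and 3.92% fell. With median centring Adam8 rose and Adam10, Adam12 and Adam15 fell, where 2.01% of all features rose and 50.2% fell. Adam8, a membrane protease of myeloid cells that sheds adhesion molecules and receptors, had levels of 9.32, 9.46 and 9.23 in Ad-Lkb1 samples, against 5.95, 6.03 and 6.84 in WT samples. The groups were far apart, and the difference was 8.38-fold (log2 ratio 3.07 ± 0.58, SD, n = 3; adjusted p = 0.0125 in limma). It was the largest ratio among the tested members. The WT samples were well above background for Adam8 on all arrays, but dim on arrays 1 and 2. Their median signals there were 60 and 55, over a median background of 44 and 43.5. The size of the Adam8 ratio is therefore less certain than its direction. Adam9, a widely made sheddase, had levels of 10.37, 10.18 and 10.64 in Ad-Lkb1 samples, against 9.90, 9.82 and 10.04 in WT samples. These groups were separate but close, at 1.39-fold (log2 ratio 0.48 ± 0.12, SD, n = 3; adjusted p = 0.0400 in limma), and the Adam9 ratio turned to -0.23 with median centring.

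Adam12, which in mice takes part in fat cell and muscle formation and cleaves insulin-like growth factor binding proteins, had levels of 7.20, 7.15 and 7.17 in Ad-Lkb1 samples, against 7.67, 7.86 and 7.55 in WT samples. It was the only member that fell (log2 ratio -0.52 ± 0.18, SD, n = 3; adjusted p = 0.0459 in limma). A second probe of the gene, also above background in all samples, had ratios of 0.26, -0.06 and 0.05, so the probes of Adam12 disagreed, and the mean of both was -0.22 and not past the threshold. The other tested sheddases did not pass. Adam17 (TACE), the sheddase of tumour necrosis factor, had a ratio of 0.17 ± 0.09 (SD), higher on all arrays, with an adjusted p of 0.222 in limma. Adam10, which releases Notch and amyloid precursor protein fragments, had 8.49, 8.34 and 8.23 in Ad-Lkb1 samples, against 8.26, 8.46 and 8.40 in WT samples, levels that overlapped. Adam19, Adam15 and Adam33 had higher levels in all Ad-Lkb1 samples than in any WT sample, with ratios of 0.41, 0.29 and 0.25. Their adjusted p-values in limma were 0.147, 0.154 and 0.140, and the ratios of Adam15 and Adam33 were -0.42 and -0.15 with median centring.

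The ADAMs without protease activity, which act as adhesion proteins or receptors, gave no call among 4 tested. Adam23 had 7.13, 7.11 and 6.79 in Ad-Lkb1 samples, against 6.31, 6.49 and 6.61 in WT samples. Its groups did not overlap, and the ratio was 0.54 ± 0.33 (SD, n = 3; adjusted p = 0.0902 in limma). Adam11 had a ratio of 0.41 ± 0.18 (SD) and Adam32 of 0.15 ± 0.08 (SD), both with separate groups. The Adam11 value had an adjusted p of 0.0722 in limma and was -0.22 with median centring.

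Adam3, a sperm surface protein, rose. It had levels of 7.03, 6.67 and 6.88 in Ad-Lkb1 samples, against 5.82, 5.95 and 5.90 in WT samples, none of which was well above background. The measured difference was 1.96-fold (means 6.86 in Ad-Lkb1 and 5.89 in WT, adjusted p = 0.0235 in limma). It was 1.92-fold with the WT level set to the lowest signal among probes well above background, or the gene's own where higher. Probes not well above background can lie above that signal, as Adamts4 did in WT samples, so neither value is a lower bound. With median centring the Adam3 log2 ratio was 0.82. A second Adam3 probe was above background in 2 of 3 Ad-Lkb1 samples and no WT sample, with a mean ratio of 0.22. The testis markers Prm2 and Tnp1 had a median log2 ratio of 0.014 and neither passed the threshold. The remaining tested ADAMs known mainly from testis, Adam26b and Adam6b, had ratios of 0.04 and -0.03 and overlapping levels.

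Of the 9 tested ADAMTS enzymes 2 rose and none fell, where 4.77% of all features rose and 3.92% fell. With median centring none rose and 1 fell (Adamts9), where 2.01% of all features rose and 50.2% fell. Adamts2, which removes the amino-terminal propeptide of fibrillar procollagens, had levels of 9.59, 9.53 and 9.47 in Ad-Lkb1 samples, against 8.57, 8.58 and 8.78 in WT samples. The groups were tight and separate, at 1.85-fold (log2 ratio 0.89 ± 0.17, SD, n = 3; adjusted p = 0.0204 in limma). A dimmer Adamts2 probe that was not tested had a mean ratio of 0.03, and with median centring the tested probe gave 0.22 and did not pass. Adamts14, another procollagen proteinase, had 6.96, 6.75 and 6.73 in Ad-Lkb1 samples, against 6.30, 6.31 and 6.86 in WT samples, with array 3 overlapping. Its mean ratio was 0.33 (adjusted p = 0.283 in limma).

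Adamts1, which cuts the proteoglycans versican and aggrecan, had levels of 8.04, 8.17 and 8.27 in Ad-Lkb1 samples, against 7.27, 7.79 and 7.67 in WT samples. The groups did not overlap, at 1.50-fold (log2 ratio 0.58 ± 0.19, SD, n = 3; adjusted p = 0.0412 in limma), and the ratio was 0.05 with median centring. The other proteoglycan-cleaving enzymes did not pass. Adamts15 had a ratio of 0.38 ± 0.24 (SD, n = 3; adjusted p = 0.111 in limma) and separate groups. Adamts4 (aggrecanase 1) was not well above background in any WT sample. Its measured difference was 1.14-fold (means 6.20 in Ad-Lkb1 and 6.01 in WT, adjusted p = 0.193 in limma), which is not a lower bound. Adamts5 (aggrecanase 2) had 6.20, 6.34 and 6.28 in Ad-Lkb1 samples, against 6.06, 6.20 and 6.33 in WT samples, which overlapped. Adamts9 had 7.70, 7.59 and 8.12 in Ad-Lkb1 samples, against 8.07, 8.34 and 7.86 in WT samples. It was lower on arrays 1 and 2 and higher on array 3, with an adjusted p of 0.428 in limma. Adamts10, which binds fibrillin microfibrils, had a ratio of 0.02 and levels that overlapped.

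The ADAMTS-like proteins share the matrix-binding modules of ADAMTS enzymes and lack the protease. None of the 3 tested passed the threshold. Adamtsl5 had 6.78, 6.85 and 6.62 in Ad-Lkb1 samples, against 6.50, 6.37 and 6.28 in WT samples, and its ratio of 0.37 ± 0.10 (SD, n = 3) had an adjusted p of 0.0572 in limma. Adamtsl4 had a ratio of 0.20, with array 1 at 0.00, and Adamtsl1 of 0.12, both with overlapping levels.

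Genes that work with these proteases were read from the same fit in lists of substrates, other proteases and regulators. For the counts below, the shares of all features that rose and fell were 4.77% and 3.92% as reported. They were 2.01% and 50.2% with median centring, and 2.75% and 1.46% with the processed signals. Of 26 tested matrix substrates of the 28 listed, 12 rose and none fell, with a median log2 ratio of 0.71, against -0.0098 for all features. With median centring 4 of them rose and 3 fell, with a median of 0.081, against -0.42 for all features, and with the processed signals 8 rose and none fell. They included the fibrillar collagen Col3a1 (1.17 ± 0.05, SD, n = 3), the collagen-binding proteoglycan Lum (1.50 ± 0.25), the basement membrane linker Nid1 (1.15 ± 0.20) and Thbs1 (0.98 ± 0.13). Of 8 other matrix proteases 5 rose and none fell (median 0.59), or 2 rose and 2 fell with median centring (median -0.030) and 1 rose with the processed signals. Ctsk, the collagen-cutting cathepsin, had a ratio of 1.35 ± 0.15, Fap of 0.63 ± 0.16 and Htra1 of 0.77 ± 0.27. Ctss, the cathepsin of antigen-presenting cells, was higher on all arrays but unequally, at 3.84, 4.87 and 1.78. In the plasminogen system 1 of 5 tested genes rose and none fell. This was the urokinase receptor Plaur, at 0.82, 0.78 and 0.80 on the 3 arrays.

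Of 13 tested regulators of these proteases 3 rose and 2 fell, with a median of 0.03, where 4.77% of all features rose and 3.92% fell. With median centring 1 rose and 6 fell, where 2.01% of all features rose and 50.2% fell. With the processed signals 1 rose and none fell, where 2.75% of all features rose and 1.46% fell. Tspan14, a tetraspanin that escorts ADAM10 to the surface, fell by 0.52 on the log2 scale (SD 0.08), and Furin, which cleaves the propeptide of several members, fell by 0.39 (SD 0.07). With the processed signals neither passed, with adjusted p-values of 0.0931 and 0.169 in limma. Rhbdf1 (iRhom1), which escorts ADAM17, had a ratio of 0.62 ± 0.16 (SD), which was -0.016 with median centring. Pzp, an alpha-2-macroglobulin relative that traps proteases, was not well above background in any WT sample. Its measured level was 1.33-fold higher in Ad-Lkb1 samples (means 6.39 in Ad-Lkb1 and 5.97 in WT, adjusted p = 0.0414 in limma). Of 10 tested proteins that ADAMs shed, 2 rose and none fell (1 rose with median centring), namely App (0.96 ± 0.20, SD) and Cd44 (1.14 ± 0.29).

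Markers of cells that make these proteins moved in the same samples. Beside the counts below, 4.77% of all features rose and 3.92% fell as reported. With median centring 2.01% rose and 50.2% fell, and with the processed signals 2.75% rose and 1.46% fell. Of 13 tested macrophage markers 8 rose and none fell, with a median ratio of 1.63 (1.80, 2.04 and 1.04 on arrays 1, 2 and 3), or 7 rose and 2 fell with median centring. Their summed linear level was 7894 to 9307 in Ad-Lkb1 samples, against 2842 to 4263 in WT samples, and Cd163 was above background in no sample. Such sums, here and below, follow the brightest genes of a list and do not measure the amount of a cell type. Array 3 had the smallest macrophage median. Of the 10 members that rose, 5 had their smallest ratio on array 3 (Adam8, Mmp3, Timp1, Mmp2 and Adamts2), 3 on array 2 (Adam3, Adamts1 and Adam9) and 2 on array 1 (Timp2 and Mmp12). Of 9 fibroblast markers 6 rose and none fell (median 0.74), 2 rose and 1 fell with median centring (median 0.12) and 2 rose with the processed signals, with summed levels of 24202 to 30838 in Ad-Lkb1 samples, against 13139 to 15937 in WT samples. This list shares Col1a1, Col1a2, Col3a1, Lum and Dcn with the matrix substrates and Fap with the other matrix proteases. Among the fibroblast markers that rose, Pdgfra alone was in neither of those lists. Of 5 tested neutrophil markers 2 rose and none fell (median 0.27), or 2 rose and 1 fell with median centring and none passed with the processed signals, with summed levels of 6895 to 11448 in Ad-Lkb1 samples, against 5896 to 9793 in WT samples, and the granule genes Mpo and Ltf were above background in no sample. Of 5 mast cell markers 3 rose and 1 fell, with summed levels of 744 to 896 in Ad-Lkb1 samples, against 540 to 672 in WT samples. Of 6 endothelial markers 1 rose and 1 fell, or 0 rose and 4 fell with median centring, where 50.2% of all features fell, with summed levels of 2508 to 2619 in Ad-Lkb1 samples, against 2669 to 3002 in WT samples. Of the 4 tested Schwann cell and nerve markers 1 fell, and neither of the 2 tested lymphocyte markers passed. The part of these cell types in the protease and inhibitor differences was not tested.

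**Figure D4:**
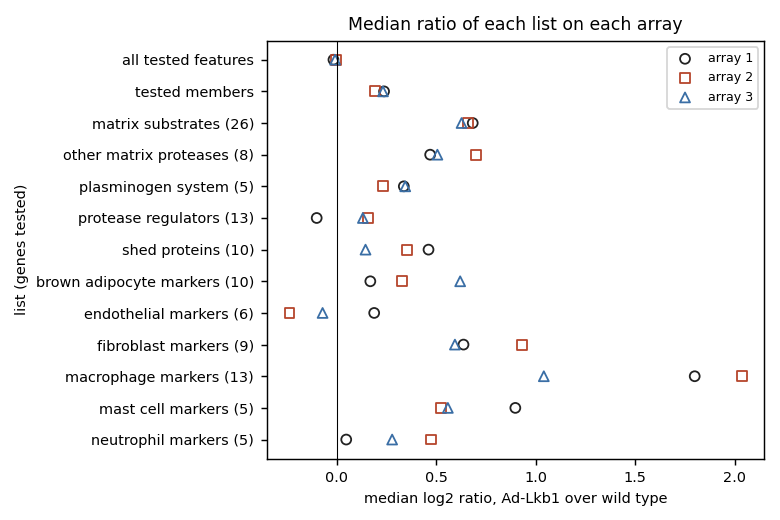
Median log2 ratio of Ad-Lkb1 over WT on each array (x axis) for all tested features, the tested members, lists of genes that work with them and marker lists (y axis, number of tested genes in brackets). The members lay between 0.19 and 0.24 on the 3 arrays and the matrix substrates between 0.63 and 0.68, while the macrophage markers spread from 1.04 to 2.04.

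The size of the ratios of dim members changed with the processing. Adam3 had a log2 ratio of 0.97 as reported, 1.91 with a normexp offset of 10 in place of 50, and 4.87 from the processed signals of the scanner software, which replace both the background correction and the dye normalization. Mmp12 had 0.91, 1.51 and 2.48 under the same settings. Adam8 ranged from 2.55 to 4.84 and Mmp3 from 1.09 to 2.22 over the 12 alternatives tried, all above 0. Timp2, Mmp2 and Adamts2 lay between 0.22 and 1.33 over theirs, also above 0.

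**Figure D5:**
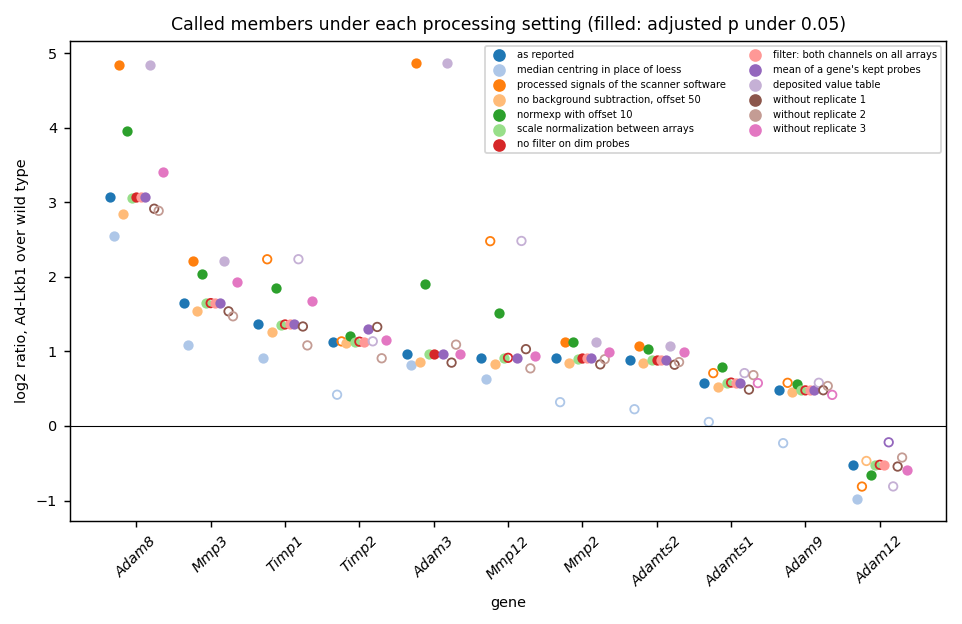
Log2 ratio of Ad-Lkb1 over WT (y axis) of the 11 called members (x axis) as reported and under each of 12 alternative processings, filled where the adjusted p was under 0.05. Adam8 stayed above 2.5 under each, and Adam9 was below 0 with median centring.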

How the data were processed

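Total RNA of brown adipose tissue was labelled and hybridised to 3 Agilent arrays, per the labels' protocols. The deposited scanner files hold median spot and background intensity values for both channels, processed intensity values and a log10 ratio of Cy5 over Cy3, per the file headers, made with Agilent Feature Extraction 11.5 per the submitters' processing notes. The deposited value table matched the log10 ratio (largest difference 0.0049). Incomplete features (1 on array 1 and 2 on array 3) and 2 stray lines in the file of array 1 were left out.

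Median intensities were background-corrected (normexp, offset 50) and loess-normalized within arrays with limma 3.58.1 in R 4.3.3. Control spots and outlier spots were left out of the tests. Levels per channel were taken after Aquantile normalization. A probe was kept if the scanner software called it well above background in every sample of 1 genotype or both, and the brightest kept probe stood for a gene. An intercept model of the log2 ratio was fitted over 19333 features, with the Benjamini-Hochberg adjustment. No batch could be tested. Depth is not defined for arrays, and 3 arrays limit the precision. Median spot signals were 21.0 to 23.0 over a background of 17.0 for Ad-Lkb1 and 51.0 to 53.5 over 43.0 to 44.0 for WT, and no spot was saturated. The method was also run on simulated data in which only brighter genes were changed, so dim members were not covered. The outcome of that run is not reported here. The alternatives were median centring, the processed signals, no background subtraction, an offset of 10, scale normalization, no filter, a filter on both channels, the mean of a gene's probes, the deposited table and leaving out each array.

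Symbols came from RefSeq (GRCm38.p6) through accessions, matching 28026 of 55681 probes. Named were Stk11, all called members, up to 3 others of each role group with the smallest p, selected members fixed by name (TIMPs and well-known MMPs, ADAMs and ADAMTS enzymes), and up to 4 genes of each list of other genes. Marker genes named with a level or sum, Ucp1 among them, came from the marker lists. Some genes of these lists are not reported here. Members, lists and rules were chosen with earlier results of these data known.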

Additional observations from a re-analysis of the deposited data

How the results depend on the processing

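The 10 higher and 1 lower members were the same 11 genes with scale normalization, and with an offset of 10, which added 1 higher member. The count of higher members was 5 with median centring (2.01% of all features higher), with the processed signals and with the deposited table, and 4 with no filter on dim probes, and 0 to 12 when 1 array was left out. Higher features made up 2.75% with the processed signals and the deposited table and 1.47% with no filter. They made up 0 to 6.85% when 1 array was left out. The count of lower members was 6 with median centring, where 50.2% of all features were lower, 0 with the processed signals, the deposited table, no background subtraction, no filter and the mean of a gene's probes, and 0 to 2 when 1 array was left out. Lower features made up 0 to 3.7% when 1 array was left out. With no filter 36799 features shared the adjustment, against 19333. The member median, 0.20 as reported, was 0.020 with median centring, 0.47 with the processed signals and the deposited table, 0.34 with an offset of 10 and 0.29 with the filter on both channels, which left 33 members. The cause of these shifts was not tested.

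Single ratios changed sign as follows. With median centring they were -0.22 for Adam11, -0.42 for Adam15, -0.15 for Adam33, -0.23 for Adam9, -0.051 for Adamts10, -0.14 for Adamtsl4, -0.16 for Mmp11, -0.24 for Mmp17, -0.40 for Mmp19, -0.65 for Timp3 and -0.016 for Rhbdf1. With the processed signals and the deposited table they were 0.041 and 0.042 for Adam10, -0.038 and -0.039 for Mmp17, and -0.090 and -0.088 for Mmp19. With no background subtraction they were -0.012 for Adamts10 and -0.00033 for Mmp19, and with an offset of 10 Adam10 was 0.055. When 1 array was left out, the ratio ran from -0.15 to 0.057 for Adam10, from -0.051 to 0.0092 for Adam6b, from -0.055 to 0.0053 for Adamts8, from -0.050 to 0.049 for Mmp17, from -0.14 to 0.19 for Mmp19 and from -0.34 to 0.28 for Timp3. Of these, Adam9 alone was called as reported, and Rhbdf1 alone was called among the other genes.

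Without array 1 or 2, 3929 and 3563 features had an unadjusted p under 0.05 in limma and none passed the adjusted threshold. Without array 3, Adam9 and Adamts1 no longer passed, and Adam19, Adam23, Adamts14 and Mmp23 passed as higher and Timp4 as lower. Each ratio pairs the 2 samples of an array, so the fit is itself paired and no further replicate block was added. Signals near background limit the ratios of Adam3, Mmp12, Adamts4 and, through its WT signal on arrays 1 and 2, Adam8. Members above background nowhere have no measured ratio.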
